A study of Mus musculus with 4 samples.

Results

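The genes described here are the matrix metalloproteinases (Mmp), their tissue inhibitors (Timp), the Adamts metalloproteinases and the Adamts-like (Adamtsl) proteins of mouse heart grafts, measured by single-cell RNA sequencing. They were taken by gene symbol alone, Mmp, Timp, Adamts or Adamtsl followed by a number. This rule found 50 of the 30905 genes in the files, of which 22 are Mmp, 4 Timp, 19 Adamts and 5 Adamtsl genes. Single-cell libraries were made from 4 hearts transplanted into the abdomen of C57BL/6J recipients and removed on day 5. The 2 allogeneic grafts came from Balb/C donors and the 2 syngeneic grafts from C57BL/6J donors. All animals were male mice of 8 to 10 weeks for which the labels name no transgene or drug, each group rests on 2 grafts, and the hearts were dissociated with collagenases and dispase before capture. The cells stand in 1 merged count matrix whose barcodes end in a suffix from 1 to 4. No label or file ties a suffix to a graft, so the 4 sets of cells are called libraries 1 to 4, the matrix was treated as 1 pooled sample, allogeneic and syngeneic grafts were not compared and no value has a replicate or a p-value.

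Matrix metalloproteinases are zinc enzymes that cut collagens, gelatin, elastin, proteoglycans and many cell surface proteins, and most are secreted as inactive precursors. Adamts enzymes are secreted relatives that process procollagens and cleave large proteoglycans such as versican and aggrecan, while Adamtsl proteins share their accessory domains but lack the catalytic domain. Timps bind the active enzymes and block them, and Timp3 also inhibits several Adamts and Adam enzymes. In the injured heart these genes are known from fibroblasts and invading leukocytes, which remodel the matrix.

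From the 53824 deposited cells, 42395 were kept, with library medians between 4569 and 11895 UMIs (unique molecular identifiers, each standing for 1 captured RNA molecule) per kept cell. Of the 53516 distinct barcode sequences, 308 occurred in more than 1 library. Clusters were named from marker genes, and 33935 cells fell into 9 classes: 11184 endothelial-like, 8567 macrophage-like, 5309 fibroblast-like, 3860 granulocyte-like, 1867 T/NK-like, 1708 pericyte-like, 734 smooth muscle-like, 380 cardiomyocyte-like and 326 B-like cells. The other 8460 cells stayed unnamed. Libraries contributed unequally: library 4 held 5886 of the macrophage-like but 371 of the fibroblast-like cells, library 2 held 2729 of the granulocyte-like cells, and 331 of the 380 cardiomyocyte-like cells came from library 1. Levels are given as CPM, the count of a gene per 1000000 UMIs of non-mitochondrial genes in the cells concerned. Brackets hold 95% intervals from the exact Poisson method, which cover counting error only and no variation between grafts.

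More of the family was highest in fibroblast-like cells than in any other class. Of the 50 members, 42 had at least 100 UMIs over the kept cells, and 22 of these were highest in fibroblast-like cells. Among all 15409 genes with as many UMIs, 13.8% were highest there. Smooth muscle-like cells were the highest class for 6 members (10.6% of all genes), endothelial-like cells for 5 (12.5%), granulocyte-like cells for 4 (7.24%), macrophage-like cells for 3 (8.2%) and pericyte-like cells for 2 (7.42%). No member was highest in T/NK-like, B-like or cardiomyocyte-like cells, against 14.4%, 12.5% and 13.4% of all genes. Restriction to 1 class, meaning a highest level at least 4-fold the next after adding 1 CPM to both, was met by 15 of the 42 members, against 9.84% of all genes. Of these, 9 were fibroblast genes (Timp1, Mmp2, Mmp3, Mmp16, Mmp23, Adamts2, Adamts5, Adamtsl2 and Adamtsl3), 3 granulocyte genes (Mmp8, Mmp9 and Adamtsl4), 2 macrophage genes (Mmp12 and Mmp13) and 1 a smooth muscle gene (Adamtsl1). For Adamtsl4 this rests on library 2, without which fibroblast-like cells were its highest class. For Adamtsl1 it holds between whole classes only, because lymphatic-like cells, a small group within the endothelial-like class, had more of it. The median fold of the highest over the next class was 2.82 for the members and 1.35 for all genes. Restriction depended on which clusters were ranked: it held for 6 members when clusters carrying markers of a pair of classes kept their names, and for 2 members when every unnamed cluster was ranked as a class of its own. The 9.84% of all genes belongs to the count of 15, and no share of all genes stands beside the 6 or the 2.

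**Figure D1:**
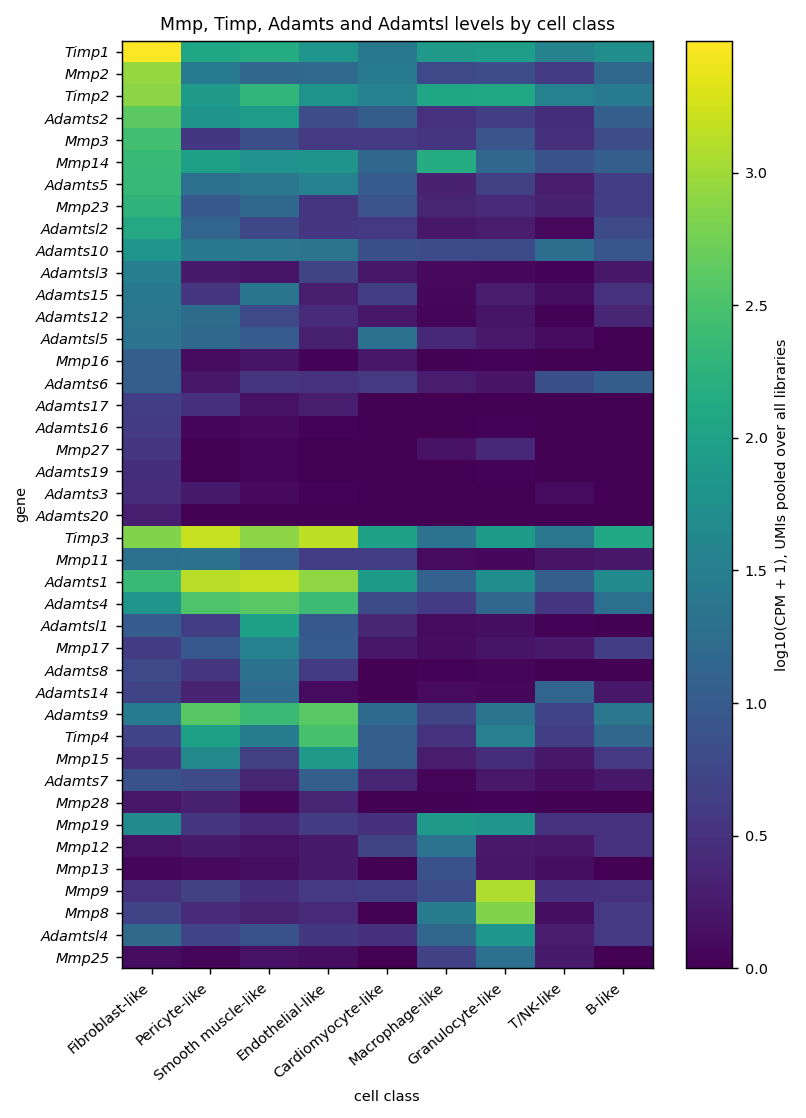
Levels of the 42 members with at least 100 UMIs in the 9 cell classes, as log10(CPM + 1) of UMIs pooled over all libraries (colour), with genes grouped by the class where they were highest. The upper block of 22 genes is brightest in the fibroblast-like column, and Mmp9 and Mmp8 are brightest in the granulocyte-like column.

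The other 8 members were at or near the detection limit. Mmp1b had 0 UMIs among all kept cells, Mmp20 had 1, Mmp7 and Mmp21 had 4 each, Mmp10 had 10, Mmp24 had 15, Adamts13 had 29 and Adamts18 had 31. Adamts13 cleaves von Willebrand factor and is made mainly outside the heart, and Mmp20 is the enamel enzyme of teeth. These counts give no order of cell classes.

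Part of the family lies side by side in the genome. On chromosome 9 of GRCm38, 9 Mmp members occupy 7272514 to 7699585, in the order Mmp13, Mmp12, Mmp1b, Mmp3, Mmp10, Mmp8, Mmp27, Mmp20 and Mmp7. Of these neighbours 5 had at least 100 UMIs, and they were highest in different cells: Mmp3 and Mmp27 in fibroblast-like, Mmp8 in granulocyte-like, Mmp12 and Mmp13 in macrophage-like cells. RefSeq promoter windows (GRCm38.p6, 250 bases before to 50 after the start) were found for 35 member genes in 38 windows. The AP-1 motif TGANTCA, which is its own reverse complement and binds Fos and Jun factors, occurred in 7 of the 38 windows and in 7.81% of the 32851 windows of all genes. All 7 windows belonged to genes of the chromosome 9 run, of which all 9 had a window. The 120 bases before the start are shown for 4 of these neighbours, drawn from all 3 cell classes, and for Timp1, the member with the widest range between libraries in fibroblast-like cells. Capitals mark the motif. The windows are chr9:7445702-7445821 for Mmp3, chr9:7272394-7272513 for Mmp13, chr9:7347254-7347373 for the downstream one of the 2 Mmp12 starts, chr9:7558309-7558428 for Mmp8 and chrX:20870046-20870165 for Timp1, all on the plus strand, 5′ to 3′.
Mmp3: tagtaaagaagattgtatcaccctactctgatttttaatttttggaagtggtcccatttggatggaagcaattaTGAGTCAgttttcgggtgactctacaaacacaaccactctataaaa
Mmp13: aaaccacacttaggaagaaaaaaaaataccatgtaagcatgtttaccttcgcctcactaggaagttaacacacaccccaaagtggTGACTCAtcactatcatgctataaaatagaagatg
Mmp12: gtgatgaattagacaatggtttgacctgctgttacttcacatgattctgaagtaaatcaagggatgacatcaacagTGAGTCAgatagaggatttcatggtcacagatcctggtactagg
Mmp8: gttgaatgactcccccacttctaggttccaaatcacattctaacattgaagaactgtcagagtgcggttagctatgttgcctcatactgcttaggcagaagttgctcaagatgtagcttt
Timp1: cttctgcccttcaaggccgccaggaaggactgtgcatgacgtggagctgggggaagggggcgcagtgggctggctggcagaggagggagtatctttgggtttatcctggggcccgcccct
The motif began 46 bases before the start in Mmp3, 35 in Mmp13 and 44 in Mmp12. These letters were not in the windows of Mmp8, Timp1 or the upstream Mmp12 start, and a match is a description of letters, not of binding.

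Among the inhibitors, Timp1 and Timp2 were highest in fibroblast-like cells, Timp3 in cells of the vessel wall and Timp4 in endothelial-like cells. Timp1, a soluble inhibitor of most secreted Mmps, reached 3143 CPM [3132 to 3154] in fibroblast-like cells and 139.8 CPM in smooth muscle-like cells, the next class. It was found in 80.8% of fibroblast-like cells, or 39.6% when every cell was thinned to 1000 UMIs, and in 19% of B-like cells, or 6.46% after thinning, at median depths of 16155 and 3836 UMIs. Between libraries it varied most of all members in this class: fibroblast-like cells had 347, 6020, 1069 and 10568 CPM of Timp1 in libraries 1 to 4. Libraries 2 and 4 were thus far above libraries 1 and 3, with no overlap of their intervals. The order was shared in part by other classes. Timp1 stood at 9.31, 153, 21.2 and 71.2 CPM in endothelial-like cells and at 22, 245, 30.2 and 62 CPM in macrophage-like cells of libraries 1 to 4. In smooth muscle-like cells it was 4.41, 309 and 55.6 CPM in libraries 1 to 3, and in pericyte-like cells 6.82, 259 and 32.9 CPM. Library 4 had 12 and 41 cells of those classes, under the 50 required.

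The 8 fibroblast markers were measured beside Timp1 in the other classes, each as a share of its fibroblast-like level. In macrophage-like cells of libraries 1 to 4, Timp1 stood at 6.34%, 4.08%, 2.83% and 0.587% of that level and the markers at medians of 1.16%, 0.644%, 1.29% and 0.443%. Timp1 was above the highest single marker in libraries 1 to 3. In granulocyte-like cells Timp1 stood at 1.36%, 1.43%, 3.34% and 1.14% and the markers at medians of 3.38%, 1.57%, 3.24% and 1.10%, so that Timp1 lay within the range of the markers in every library. In endothelial-like cells Timp1 stood at 2.69%, 2.55%, 1.98% and 0.674% and the markers at medians of 1.75%, 1.42%, 1.46% and 0.838%. In pericyte-like cells of libraries 1 to 3 Timp1 stood at 1.97%, 4.30% and 3.08% and the markers at medians of 2.31%, 6.06% and 3.33%. The part of fibroblast RNA in the Timp1 levels outside fibroblast-like cells was not tested.

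Timp2, which inhibits Mmps and also takes part in the activation of Mmp2 by Mmp14, had 1092, 198, 914 and 653 CPM in fibroblast-like cells of libraries 1 to 4. Library 2 was the lowest here. In macrophage-like cells Timp2 had 462, 44.2, 390 and 50.6 CPM, with libraries 1 and 3 far above libraries 2 and 4. Pericyte-like cells had 89.1, 43 and 94.8 CPM and smooth muscle-like cells 158, 139 and 288 CPM in libraries 1 to 3. In endothelial-like cells Timp2 was 83, 23.8, 86.6 and 30.5 CPM.

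Timp3, which stays bound to the matrix, was at 1559 CPM [1541 to 1577] in pericyte-like and 1434 CPM [1426 to 1441] in endothelial-like cells, so that no single class stood out. It was found in 94.3% of endothelial-like cells, or 65.7% after thinning. Endothelial-like cells had 1638, 1520, 865 and 3010 CPM of Timp3 in libraries 1 to 4, highest in library 4. Pericyte-like cells had 2275, 1671 and 900 CPM and smooth muscle-like cells 1147, 716 and 562 CPM in libraries 1 to 3. In fibroblast-like cells Timp3 was 817, 179, 798 and 805 CPM, with library 2 apart from 3 nearly equal libraries. Macrophage-like cells had 42.2, 37.9, 32.4 and 13.9 CPM.

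Timp4, an inhibitor known for its abundance in the heart, was an endothelial gene here, at 296.3 CPM [293.0 to 299.7] against 95.5 CPM in pericyte-like cells. Endothelial-like cells had 176, 725, 58.5 and 13.7 CPM of Timp4 in libraries 1 to 4, and 42.2%, 73.1%, 28.2% and 10.2% of them held a UMI. This 49.2-fold range was the widest of the 31 members measured in the class. Pericyte-like cells had 32, 215 and 24.4 CPM in libraries 1 to 3, again highest in library 2. That was 18.2%, 29.7% and 41.8% of the endothelial-like level, below the medians of 47.2%, 51.6% and 51% at which the 7 endothelial markers stood in the same pericyte-like cells. These markers summed to 3314, 4342 and 3848 CPM in pericyte-like cells of libraries 1 to 3, against 6616, 8725 and 7570 CPM in endothelial-like cells, and their part in the levels of Timp4 and other vessel genes in pericyte-like cells was not tested. The 380 cardiomyocyte-like cells held 10.4 CPM of Timp4 and 98.1 CPM of Timp3, at a median of 2730 UMIs per cell.

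**Figure D2:**
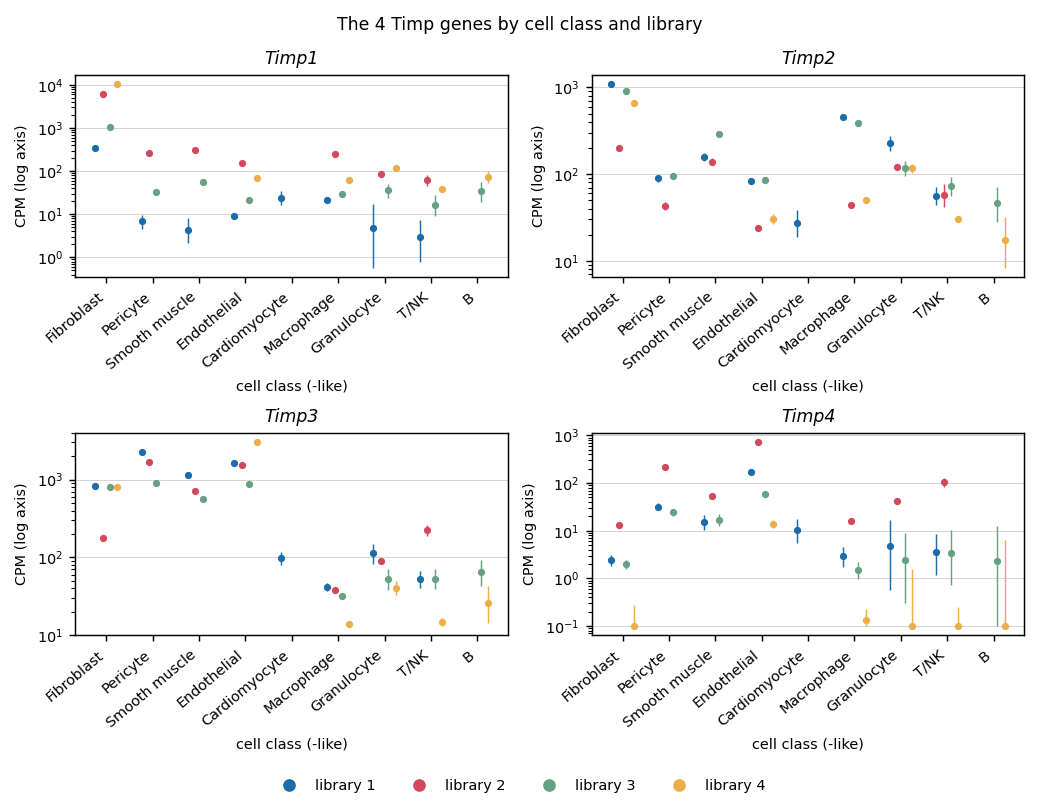
CPM (log axis) of Timp1 to Timp4 in each class, 1 point for each library with at least 50 cells of the class, with exact Poisson 95% intervals as bars. Values under 0.1 CPM are drawn at 0.1. Timp1 in fibroblast-like cells runs from 347 to 10568 CPM, while Timp3 is high in every library of the pericyte-like, smooth muscle-like and endothelial-like classes.

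Summed over the Mmp members, granulocyte-like cells had 2009 CPM and fibroblast-like cells 1658 CPM, and no other class exceeded 296 CPM. Mmp2, the gelatinase that most stromal cells make, stood at 872 CPM [866 to 878] there and at 26.9 CPM in pericyte-like cells, the next class. A UMI of Mmp2 was held by 95.9% of fibroblast-like cells, or 54.8% after thinning, and by 5.21% of B-like cells, or 1.54% after thinning. By library it had 1389, 266, 1033 and 259 CPM, low in the libraries where Timp1 was high. Mmp3, stromelysin 1, which cuts proteoglycans and activates other Mmps, stood at 275.7 CPM [272.5 to 279.0] but was concentrated in fewer cells, 22.9% of them or 8.92% after thinning. By library Mmp3 had 227, 675, 85.7 and 315 CPM in fibroblast-like cells, highest in library 2 and lowest in library 3. In granulocyte-like cells, the next class, it stood at 7.23 CPM, and in libraries 1 to 4 that was 0%, 1.15%, 5.75% and 2.14% of its fibroblast-like level, where fibroblast markers had medians of 3.38%, 1.57%, 3.24% and 1.10%.

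Of the membrane-anchored enzymes, Mmp14, which activates pro-Mmp2 at the cell surface, was shared between classes, at 231.8 CPM in fibroblast-like and 145.2 CPM in macrophage-like cells. In fibroblast-like cells it had 247, 78.8, 311 and 205 CPM and in macrophage-like cells 82.8, 171, 110 and 152 CPM in libraries 1 to 4. Library 2 was therefore lowest in the first class and highest in the second. Mmp15 was highest in endothelial-like cells at 74.5 CPM and next in pericyte-like cells at 42.9 CPM. In libraries 1 to 3 its pericyte-like level was 64.2%, 60.7% and 57.9% of the endothelial-like level, where the 7 endothelial markers had medians of 47.2%, 51.6% and 51%, and the part of endothelial RNA in it was not tested. Endothelial-like cells had 42.5, 25.9, 151 and 21.5 CPM of it, with library 3 well above the rest. Mmp16 was at 10.5 CPM in fibroblast-like cells and under 1 CPM in each other class. Mmp17, held by a lipid anchor, was highest in smooth muscle-like cells at 34.1 CPM, with 23.8, 13.4 and 66.7 CPM in libraries 1 to 3. Endothelial-like cells had more of it in library 2, at 19.9 CPM, and less in libraries 1 and 3. The highest class of Mmp17 was kept in 10 of 15 alternative ways of processing. Mmp23 was at 188 CPM in fibroblast-like and 14.3 CPM in smooth muscle-like cells, the next class, and by library had 215, 33, 252 and 185 CPM. Of the remaining secreted Mmps, Mmp11 was at 19.7 CPM in pericyte-like and 17.9 CPM in fibroblast-like cells, Mmp27 at 2.57 CPM in fibroblast-like and Mmp28 at 1.35 CPM in endothelial-like cells. In pericyte-like cells Mmp11 had 19.4, 5.16 and 37.3 CPM in libraries 1 to 3. Endothelial-like cells had 1.45, 1.02, 1.65 and 0.973 CPM of Mmp28 in libraries 1 to 4, with overlapping intervals.

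The procollagen-processing enzyme Adamts2 was a fibroblast gene at 418.7 CPM, with 439, 151, 597 and 269 CPM in libraries 1 to 4. Its relatives with the same task were lower. Adamts14 was highest in smooth muscle-like cells at 15.5 CPM [12.9 to 18.4] and next in T/NK-like cells at 12.6 CPM [11.3 to 14.1]. Adamts3, like Adamts2, was highest in fibroblast-like cells, at 1.79 CPM. In smooth muscle-like cells Adamts14 had 19, 15.4 and 13.6 CPM in libraries 1 to 3, with overlapping intervals. T/NK-like cells had 32.1, 1.33, 27.9 and 11.2 CPM of Adamts14 in libraries 1 to 4, of which the value in library 2 rests on 1 UMI.

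The Adamts enzymes known to cleave versican and aggrecan divided between the vessel wall and fibroblasts. Adamts1 was highest in smooth muscle-like cells at 1558 CPM, followed by pericyte-like cells at 1309 CPM and endothelial-like cells at 815 CPM. Smooth muscle-like cells had 2250, 1331 and 1255 CPM of Adamts1 in libraries 1 to 3, and 94.3% of them held a UMI. Adamts4 had 398, 345 and 245 CPM in the same 3 classes. In smooth muscle-like cells it had 375, 331 and 506 CPM in libraries 1 to 3, and in endothelial-like cells 89.1, 257, 302 and 408 CPM in libraries 1 to 4, lowest in library 1. Adamts9 was at 394.7 CPM [390.8 to 398.6] in endothelial-like and 383.5 CPM [374.6 to 392.5] in pericyte-like cells, whose intervals overlap. Endothelial-like cells had 219, 533, 355 and 539 CPM of Adamts9 in libraries 1 to 4, also lowest in library 1. Adamts8 was at 20.1 CPM in smooth muscle-like cells, with 26.5, 16.6 and 20.1 CPM in libraries 1 to 3. Adamts5, by contrast, was a fibroblast gene at 219.9 CPM against 34.7 CPM in endothelial-like cells, the next class. By library it had 294, 140, 248 and 108 CPM in fibroblast-like cells. Adamts15 was at 25 CPM in fibroblast-like and 21.7 CPM in smooth muscle-like cells, and Adamts20 at 0.971 CPM in fibroblast-like cells. The fibroblast-like level of Adamts15 rests mainly on library 1, with 61.6 CPM there and 3.51 CPM in library 4, the lowest. In smooth muscle-like cells Adamts15 ran from 27.8 CPM in library 1 to 13.8 CPM in library 2. Without library 1, smooth muscle-like cells were above fibroblast-like cells.

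The remaining Adamts genes were low. Adamts10, a gene of fibrillin microfibrils, had 65.4 CPM in fibroblast-like cells, with 89.4, 13.4, 93 and 15.7 CPM in libraries 1 to 4. Adamts12, which cleaves cartilage oligomeric matrix protein, had 22.3 CPM in fibroblast-like and 16.4 CPM in pericyte-like cells. Adamts7, with the same substrate, had 10.5 CPM in endothelial-like and 6.63 CPM in fibroblast-like cells. Endothelial-like cells of libraries 1 to 4 had 14.5, 6.46, 12.1 and 7.29 CPM of Adamts7. Adamts6, Adamts16, Adamts17 and Adamts19 had 10.5, 3, 3.49 and 1.83 CPM in fibroblast-like cells, their highest class. For Adamts6 the B-like level of 9.82 CPM [5.37 to 16.5] had an interval that holds the fibroblast-like level.

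Among the Adamtsl genes, whose products carry no protease, Adamtsl2 stood at 129 CPM in fibroblast-like cells against 12.7 CPM in pericyte-like cells, the next class. It had 82.7, 16.6, 263 and 10.1 CPM in libraries 1 to 4, highest in library 3. Adamtsl3 stood at 31 CPM, with 34.1, 5.72, 49.5 and 9.92 CPM. Among whole classes, Adamtsl1 was highest in smooth muscle-like cells, at 98.1 CPM against 9.36 CPM in fibroblast-like cells, the next class. Smooth muscle-like cells had 157, 28.5 and 133 CPM of it in libraries 1 to 3, lowest in library 2. Lymphatic-like cells, a small group of endothelial-like cells described below, had more Adamtsl1, both pooled and in libraries 1 and 3. The highest class of Adamtsl1 was kept in 10 of 15 alternative ways of processing. Adamtsl5 had 20.4 CPM in fibroblast-like and 19.4 CPM [12.9 to 28.0] in cardiomyocyte-like cells.

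In fibroblast-like cells, 20 of the 37 members with at least 100 UMIs in the class had a highest library at least 4-fold the lowest after adding 1 CPM to both, against 19% of the 12843 genes tested the same way. The widest ranges were those of Timp1 at 30.4-fold, Adamtsl2 at 23.7-fold, Timp4 at 14.1-fold and Adamts15 at 13.9-fold. Timp4 ran from 0 CPM in library 4 to 13.1 CPM in library 2, where endothelial-like cells had 725 CPM. Endothelial markers in fibroblast-like cells summed to 119, 145, 141 and 31.9 CPM in libraries 1 to 4. The part of endothelial RNA in the Timp4 range was not tested. The members divided by library: 15 were highest in library 1 and 13 in library 3, among them Mmp2, Timp2 and Adamts5 in library 1 and Mmp14, Mmp23, Adamts2 and Adamtsl2 in library 3. Only Mmp3, Mmp9, Timp4 and Adamts6 were highest in library 2, and Timp1, Mmp8, Mmp19, Adamts9 and Adamts14 in library 4. Mmp9 stood at 4.65 CPM in library 2. Granulocyte markers in fibroblast-like cells summed to 33, 702, 20.4 and 74.7 CPM in libraries 1 to 4, and the part of granulocyte RNA was not tested. Of all genes tested, 35.5%, 26.3%, 23% and 15.2% were highest in libraries 1 to 4, and of the members 40.5%, 10.8%, 35.1% and 13.5%. Beside this, the 8 fibroblast markers summed to 48810, 10899, 53126 and 33293 CPM in fibroblast-like cells of libraries 1 to 4, so that library 2 was lowest for the markers as it was for Timp2, Timp3 and Adamts2. Its part in the result was not tested. Without library 2, 13 members kept a 4-fold range, a count with no share of all genes beside it.

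**Figure D3:**
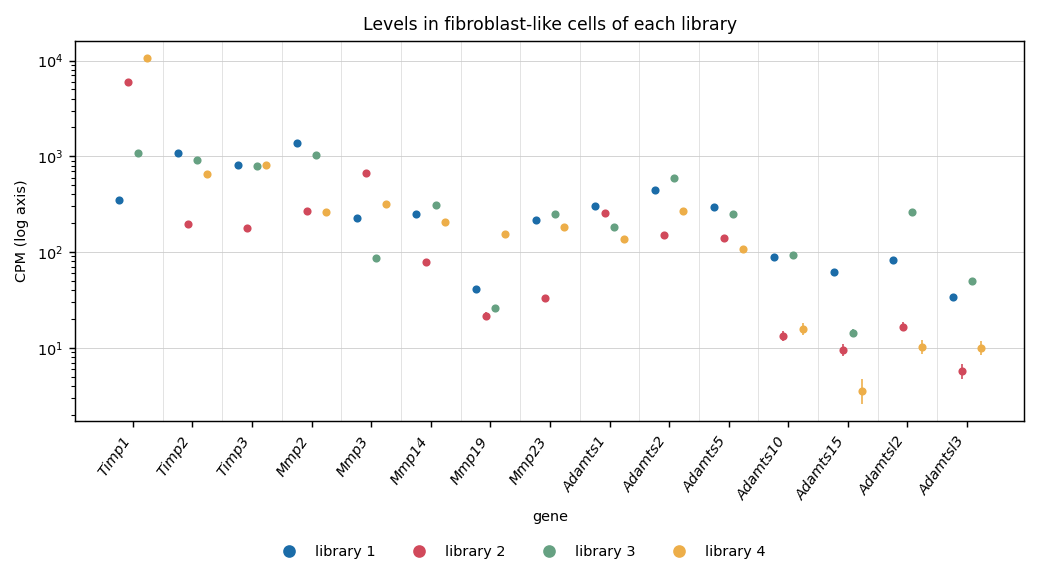
CPM (log axis) of 15 members in fibroblast-like cells, 1 point per library, with exact Poisson 95% intervals as bars, most of them smaller than the point. Timp1 is highest in libraries 2 and 4, Mmp19 in library 4, and Mmp2 and Adamts10 in libraries 1 and 3.

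Fibroblast-like cells were clustered again without members among the variable genes, and the groups came largely from single libraries, so group and library cannot be told apart between them. The 754 stromal Prg4-like cells, all of library 2, had 6033 CPM of Timp1 and 614 CPM of Mmp3. The 332 cells led by Hp, Gbp2b and Serpina3g, 330 of them of library 4, had 10780 CPM of Timp1 and 155 CPM of Mmp19. Within library 3 the groups could be set side by side. Activated fibroblast-like cells, led by Cthrc1, Ddah1 and C1qtnf3, had 6.71 CPM of Mmp3 in 657 cells of that library, the group led by Cpz, Gucy1a1 and Lgi2 had 423 CPM in 194 cells, and resting fibroblast-like cells had 177 CPM in 66 cells. Among these groups alone, Adamts16 was highest where Mmp3 was lowest, at 16.2 CPM in the activated cells, 1.27 CPM in the Cpz-led group and 0 UMIs in the resting cells. Other groups with many cells of library 3 are left out, such as those led by Cst6 and Spon2 (455 cells of it) and by Cst6 and Cilp (376 cells). A group of 285 cells led by Ptgds, Wif1, Cytl1 and Chad had 16.9 CPM [13.1 to 21.5] of Adamts19, with 15.5 CPM in library 1 and 21.2 CPM in library 3, against at most 4.69 CPM in any other group of at least 50 cells in 1 library. The same 285 cells had 1958 CPM of Timp3 and 648 CPM of Mmp3. In a small group of 30 cells led by Slpi, Msln and Upk3b, genes known from the mesothelial surface, Adamtsl1 had 102 CPM.

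In endothelial-like cells, 11 of 31 members had a 4-fold range between libraries, against 10.5% of the 12383 genes tested. After Timp4 came Timp1 at 15-fold, Mmp2 at 7.31-fold and Mmp15 at 6.75-fold. Mmp2 ran from 2.31 CPM in library 4 to 23.2 CPM in library 1, where fibroblast-like cells had 259 and 1389 CPM. Fibroblast markers in endothelial-like cells summed to 728, 180, 737 and 304 CPM in libraries 1 to 4. The part of fibroblast RNA in the Mmp2 range was not tested. Without library 2 the count was 7, with no share of all genes beside it. Mmp8 and Mmp9, counted among the 11, stood in endothelial-like cells of library 2 at 0.542% and 0.527% of their granulocyte-like levels, where 7 granulocyte markers had a median of 0.677%.

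Vessel segments held different members. Capillary-like cells, 908 cells all of library 2, had 1093 CPM of Timp4, and a further 2225 cells led by AA467197, Inhbb and Pgf had 724 CPM. Within library 2, arterial-like cells had 119 CPM and endocardial or venous-like cells 53.5 CPM of Timp4. In library 1 a group of 2068 cells led by Hbb-bt, Ifit1 and Isg15 had 215 CPM, arterial-like cells 46.4 CPM, endocardial or venous-like cells 19.1 CPM and lymphatic-like cells 6.75 CPM of Timp4, so that arterial-like cells were above endocardial or venous-like cells in both libraries. Inflamed-like cells, 622 of 625 from library 4 and led by Ubd, Serpina3g and Cxcl9, had 2995 CPM of Timp3, 425 CPM of Adamts4 and 14.3 CPM of Timp4. Library 4 had 638 endothelial-like cells in all, so this group and that library cannot be told apart. The 193 lymphatic-like cells had 168 CPM [154 to 184] of Adamtsl1, with 220 CPM in library 1 and 231 CPM in library 3, while every other group of endothelial-like cells with 50 or more cells in those libraries had at most 12.7 CPM. They also had 679 CPM of Timp2 and 179 CPM of Adamts5. Mmp15, with libraries pooled, was 139 CPM in arterial-like cells, 6.42 CPM in lymphatic-like cells and 3.67 CPM in endocardial or venous-like cells. Of the 941 arterial-like cells, 515 were of library 3, where all endothelial-like cells together had 151 CPM. Lymphatic-like and endocardial or venous-like cells drew most on library 1, with 72 of 193 and 84 of 210 cells. Segment and library are thus mixed in these values. Endocardial or venous-like cells had 763 CPM of Timp1, which came mainly from library 2, with 1697 CPM against 41.7 CPM in library 1. Their 25.3 CPM of Mmp13 rest on 2 of the 210 cells.

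**Figure D4:**
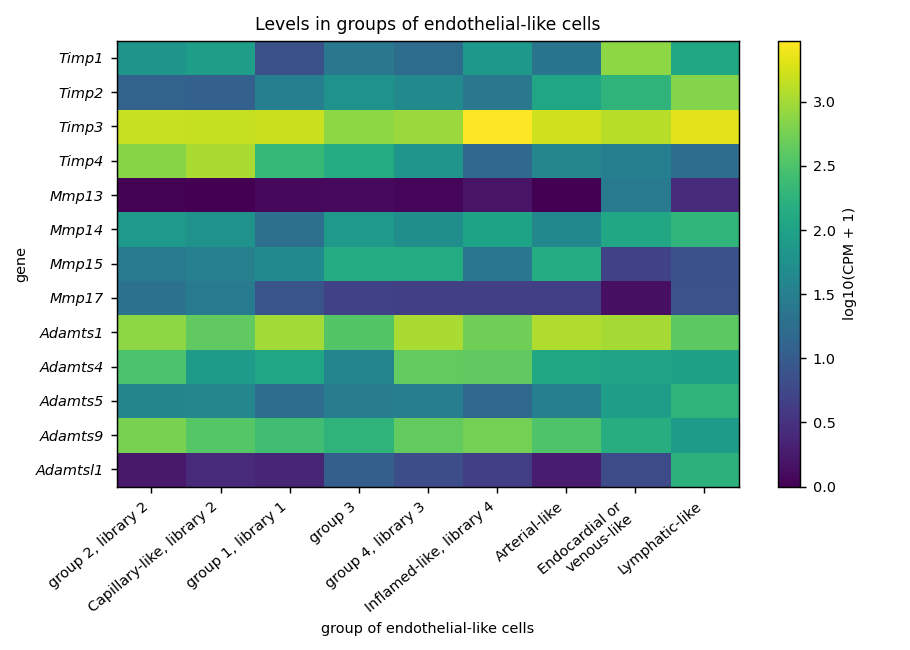
Levels of 13 members, as log10(CPM + 1) (colour), in 9 groups of endothelial-like cells. Groups 1 to 4 have no segment name, and a library in a label is the one that most cells of that group came from. Timp4 is brightest in both library 2 groups on the left, and Adamtsl1 and Timp2 in lymphatic-like cells on the right.

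Granulocyte-like cells carried the enzymes Mmp9 and Mmp8 at high level, and Adamtsl4 and Mmp25 at lower levels. Mmp9, the gelatinase stored in neutrophil granules, was at 1208 CPM [1190 to 1225] in granulocyte-like cells and at 5.65 CPM in macrophage-like cells, the next class. A UMI of Mmp9 was found in 71.3% of granulocyte-like cells, or 51.7% after thinning, and in 0.92% of B-like cells, or 0.308% after thinning. The median depths of these classes were 3476.5 and 3836 UMIs. By library granulocyte-like cells had 1030, 1341, 1378 and 536 CPM of Mmp9. Mmp8, neutrophil collagenase, was at 683.5 CPM, and by library at 474, 849, 82.5 and 126 CPM, so that libraries 1 and 2 exceeded libraries 3 and 4. Adamtsl4 was at 67.5 CPM, with 0, 87, 6.15 and 6.33 CPM in libraries 1 to 4. The value of 0 in library 1 allows up to 7.07 CPM, and without library 2 granulocyte-like cells had 5.55 CPM. Fibroblast-like cells had 19.1, 5.67, 18.6 and 13 CPM of Adamtsl4. Mmp25, a membrane enzyme of neutrophils, was at 18.1 CPM with 11.8, 22.3, 1.23 and 4.22 CPM. Macrophage-like cells of library 4 had 5.21 CPM of Mmp25, close to the 4.22 CPM of granulocyte-like cells there, and such low values give no order.

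Within granulocyte-like cells of library 2, the groups differed. A group of 609 cells, 603 of library 2, was led by Camp, Ltf, Ifitm6 and Ngp. Of these, Camp, Ltf and Ngp are genes of neutrophil granules. The group had 1847 CPM of Mmp9 and 1512 CPM of Mmp8. The 677 cells led by Ero1l, Bnip3 and Cldn1, all of library 2, had 316 CPM of Mmp9 and 423 CPM of Mmp8. The 1084 cells led by Chil3, Mmp19 and Cxcl3 had 1544 CPM of Mmp9, 136 CPM of Mmp19 and 114 CPM of Adamtsl4. In granulocyte-like cells, 9 of 14 members had a 4-fold range between libraries, against 20% of 6841 genes. They were Mmp8, Mmp19, Mmp25, Adamtsl4, Timp1, Timp4, Mmp3, Adamts1 and Adamts9. For Mmp3 the range rests on a value of 0 in library 1, which allows up to 7.07 CPM, against 7.77 CPM in library 2. Endothelial markers in granulocyte-like cells summed to 424, 536, 480 and 53.2 CPM in libraries 1 to 4. Fibroblast markers summed to 1409, 142, 1642 and 339 CPM. The part of such RNA in the ranges of Timp1, Timp4, Mmp3, Adamts1 and Adamts9 was not tested.

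In macrophage-like cells, which clear debris and matrix fragments, 16 of 24 members had a 4-fold range between libraries, against 14.1% of 11608 genes. Without library 2 the count was 8, and without library 4 it was 9, with no share of all genes beside either. Among the 16 were Mmp2, Mmp23 and Adamts2, which ranged from 1.78 to 20.3, from 0.134 to 4.56 and from 1.19 to 8.17 CPM. Fibroblast markers in macrophage-like cells summed to 483, 59.3, 614 and 144 CPM in libraries 1 to 4, and their part in these ranges was not tested. The vessel genes Timp4, Mmp15, Adamts1 and Adamts9 were among the 16 too, with highest values of 16, 4.62, 31.6 and 13.1 CPM. Endothelial markers in the same cells summed to 177, 206, 202 and 45.8 CPM in libraries 1 to 4. The part of endothelial RNA was not tested. Mmp12, macrophage elastase, was at 20.4 CPM, and by library at 160, 3.75, 57.8 and 6.35 CPM, held by 10.7%, 2.18%, 6.85% and 2.33% of cells. The 1293 cells led by Gdf15, Fcrls and Ms4a7, 945 of them from library 3 and 337 from library 1, had 72 CPM of Mmp12, 445 CPM of Timp2 and 12.9 CPM of Mmp13. Mmp13, collagenase 3, had 13.7, 4.49, 12.2 and 5.29 CPM by library, and among the groups of macrophage-like cells was highest, at 21.7 CPM [18.9 to 24.7], in 413 cells of library 4 led by Ccl8, Gbp2b and Vcam1. Infiltrating monocyte-like cells of the same library had 0.508 CPM of Mmp13 and 0.654 CPM of Mmp12.

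Mmp19, a secreted enzyme known from monocytes and vessels, had 75.3 CPM in macrophage-like, 66.4 CPM in granulocyte-like and 46.2 CPM in fibroblast-like cells when libraries were pooled. Without library 2 fibroblast-like cells were the highest class. By library it stood at 14.1, 83.9, 12.3 and 9.29 CPM in granulocyte-like cells, at 41, 265, 29.3 and 54.4 CPM in macrophage-like cells, above the granulocyte-like cells of the same library in each case, and at 41.3, 21.5, 25.8 and 153 CPM in fibroblast-like cells, highest in library 4. In library 2 the macrophage-like group led by Cxcl3, Lcn2 and S100a8 had 306 CPM in 720 cells and resident macrophage-like cells had 84.1 CPM in 269 cells.

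Mmp8 was also present in macrophage-like cells, at 18.9, 141, 5.7 and 14 CPM in libraries 1 to 4. That was 3.99%, 16.6%, 6.91% and 11.1% of the granulocyte-like level, while the 7 granulocyte markers had medians of 0.256%, 2.36%, 0.221% and 0.586%, and at most 10.6% in library 2. In fibroblast-like cells of library 4 Mmp8 had 19.6 CPM [17.3 to 22.1], or 15.5% of the granulocyte-like level, while the granulocyte markers lay between 0.034% and 1.10%. It was held by 13.7% of those cells, against 0.987% to 6.85% in the other libraries. In the same fibroblast-like cells macrophage markers summed to 638 CPM, against 58.1 to 88.1 CPM in libraries 1 to 3. The group of 332 cells led by Hp, which leaves out 31 cells led by Fcer1g, Ctss and Cd52, had 18.5 CPM of Mmp8. The part of other cells' RNA in these values was not tested.

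**Figure D5:**
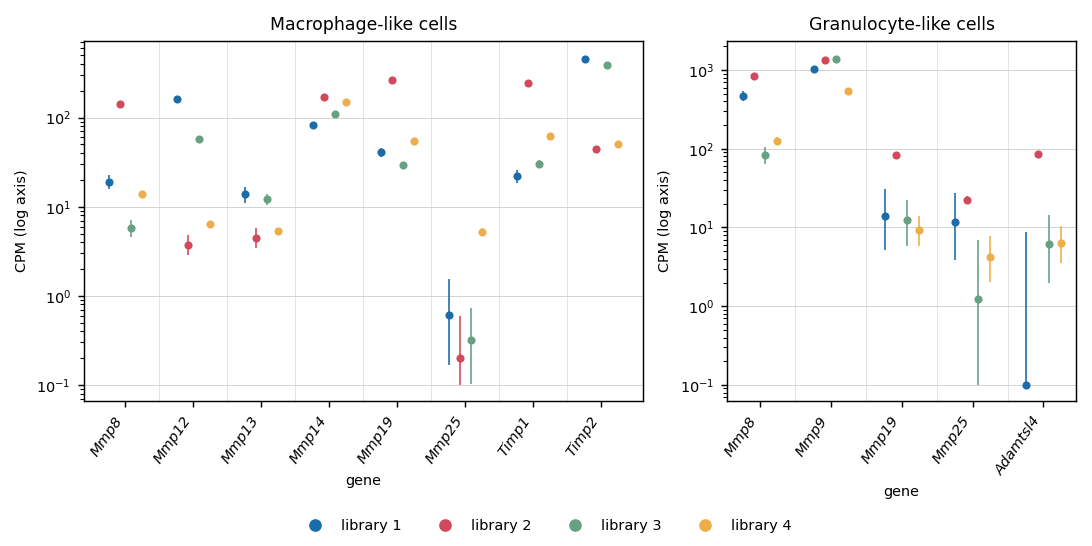
CPM (log axis) of members in macrophage-like (left) and granulocyte-like cells (right), 1 point per library with exact Poisson 95% intervals as bars. Values under 0.1 CPM are drawn at 0.1. Mmp12 and Timp2 are highest in libraries 1 and 3 of macrophage-like cells, Mmp8, Mmp19 and Timp1 in library 2, and Adamtsl4 stands at 87 CPM in library 2 of granulocyte-like cells against 6.33 CPM or less elsewhere.

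In the other classes, 6 of 20 members in pericyte-like cells (3.68% of all genes), 5 of 18 in smooth muscle-like cells (3.84%) and 5 of 9 in T/NK-like cells (16.3%) had a 4-fold range between libraries. Pericyte-like cells had it for Timp1, Timp4, Mmp2, Mmp11, Mmp15 and Adamtsl2, smooth muscle-like cells for Timp1, Mmp2, Mmp17, Adamts2 and Adamtsl1. Mmp2, Adamtsl2 and Adamts2 were highest in library 3 and Timp1 in library 2. Fibroblast markers summed to 1020, 601 and 2695 CPM in pericyte-like and 989, 1000 and 3795 CPM in smooth muscle-like cells of libraries 1 to 3. The part of fibroblast RNA was not tested. In T/NK-like cells the members with such a range were Timp1, Timp3, Adamts1, Adamts9 and Adamts14, of which all but Adamts14 were highest in library 2. Endothelial markers in T/NK-like cells summed to 186, 1147, 475 and 58.4 CPM in libraries 1 to 4, likewise highest in library 2. There Adamts9 stood at 13.2% of its endothelial-like level and the markers at a median of 13.4%. The part of endothelial RNA in these ranges was not tested. In B-like cells 2.88% of genes had such a range, and no member reached 100 UMIs in the 2 libraries compared.

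Genes that act with the family were looked at in lists. Of 14 substrates, 12 had at least 100 UMIs. Of these, 9 were highest in fibroblast-like cells and 8 were restricted to 1 class, against 13.8% and 9.84% of all genes. Their median fold over the next class was 4.56, against 1.35 for all genes. Dcn, Bgn, Col1a1 and Col3a1, counted in the 9 and in the 8, were also markers used to name fibroblast-like cells. Their place there was favoured in advance, so these counts and this median are no independent result. The proteoglycan Vcan was at 303 CPM in fibroblast-like cells, where Adamts5 was also highest, while Acan was a smooth muscle gene at 74 CPM, the class where Adamts1 and Adamts4 were highest. The basement membrane collagen Col4a1 was highest in endothelial-like cells at 2309 CPM. Of 14 regulators and activators, 9 were highest in fibroblast-like cells and 2 were restricted, Pcsk6 at 125 CPM and Thbs2 at 264 CPM, against 13.8% and 9.84% of all genes. Some of the 9 were near the next class or low. Bsg had 645 CPM against 639 CPM in cardiomyocyte-like cells and Pcsk5 25.5 CPM against 22.6 CPM in pericyte-like cells. Lrp2 and A2m had 0.931 and 0.882 CPM. Lrp1, a receptor that clears Mmps and Adamts enzymes from the surroundings, was at 751 CPM in fibroblast-like cells, and Reck, a membrane inhibitor, at 23.4 CPM. Furin, which activates membrane Mmps and Adamts precursors, was highest in granulocyte-like cells at 216 CPM. In the plasminogen system none of 6 genes was restricted. Plaur was highest in granulocyte-like cells at 889 CPM and Plat in pericyte-like cells at 236 CPM. Of 9 membrane Adams 1 was restricted, Adam12 in fibroblast-like cells at 46.8 CPM. Of 6 cathepsins and elastases, Ctss and Ctsb were restricted to macrophage-like cells at 3212 and 2341 CPM and Ctsk to fibroblast-like cells at 170 CPM.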

How the data were processed

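Gene counts (UMIs per gene and cell) were deposited by the authors as 1 merged, unnormalized matrix, produced by Cell Ranger (3.0.0 per the file headers) with the mm10 build and Ensembl 92 genes. The submitters' processing notes also name CASAVA 1.8 and Seurat. Library totals were 96020294 to 166079145 UMIs. Members, gene lists and markers were chosen with earlier results of these data known.

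A kept cell had over 200 detected genes and less than 20% of its UMIs from mitochondrial genes, which were then dropped. Simulated doublets were used to score the cells of each library, and the 5% with the highest scores (2231 cells) were removed. Counts scaled to 10000, 2000 variable genes without members and 10 principal components gave a graph of 30 neighbours, clustered by the Leiden method at a resolution of 0.8, and classes again at 0.5. A cluster was named from at least 3 markers, each detected in 10% of its cells and 2-fold over the other clusters with 10 CPM added. After the data were seen, clusters in which a further class had at least 60% of its markers were left unnamed: 5051 cells, 11.9% of the kept cells, and 15.7%, 17.4%, 14.2% and 0.0373% of libraries 1 to 4. Members with at least 100 UMIs are named under their highest class, with values by library for the Timps and for up to 6 members per class with the highest CPM. Other values, all subgroups and the sequences shown were chosen after their values were seen. A value of 0 allows 3 UMIs. Shares were recomputed in 38423 cells thinned to 1000 UMIs, leaving out 3972 shallower ones. No test was possible with 1 pooled sample. The steps were tested on simulated data. Positions are of GENCODE M21. Python 3.11.15, numpy 2.4.6, scipy 1.17.1, igraph 0.11.9 and leidenalg 0.10.2 were used. Alternatives changed the clustering, cell limits, doublets, weighting, thresholds and libraries.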

Additional observations from a re-analysis of the deposited data

How the results depend on the processing

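No paired analysis was possible because the labels number the grafts but no file pairs a barcode suffix with a graft, and the matrix is 1 pooled sample with no test. The count of 22 members highest in fibroblast-like cells stayed between 18 and 25 in every alternative except thinning to 1000 UMIs, where 14 of 31 members tested were highest there, and between 18 and 22 when a library was left out. The 15 restricted members became 23 at a 2-fold limit, 2 when unnamed clusters were ranked and 6 when clusters with markers of a pair of classes kept their names (added after seeing the data), and stayed between 13 and 15 when a library was left out. Shares of all genes are given for the count of 15 only. The 4-fold range between libraries held in fibroblast-like cells for 20 members, for 31 at 2-fold, 13 after thinning, 13 with at least 500 genes per cell and 13 to 17 when a library was left out (13 without library 2). In endothelial-like cells it held for 11, for 25 at 2-fold, 6 after thinning and 7 to 10 when a library was left out (7 without library 2). In macrophage-like cells it held for 16, for 7 after thinning and 8 to 15 when a library was left out (8 without library 2, 9 without library 4). Shares of all genes stand beside the main counts of 22, 20, 11 and 16 only, not beside their alternatives. The median range over all genes was 2.15-fold in fibroblast-like and 1.71-fold in endothelial-like cells, so the counts at 2-fold cannot be read alone. Thinning leaves fewer members at 100 UMIs, and leaving out a library leaves fewer to compare; the cause of the other changes was not tested. The highest class was kept by 17 of 42 members in all 15 alternatives. It was least stable for Timp3 and Adamts14, which kept it in 9 of 15. The CPM of single members in their highest class moved beyond counting error for 0 to 36 of 42 by setting and most often after thinning. In classes of under 400 cells, such as cardiomyocyte-like cells with 1447014 UMIs in all, levels of a few CPM rest on few UMIs. Mmp12 at 4.15 CPM in cardiomyocyte-like cells is such a level. It was the next class for Mmp12, whose 4.15-fold restriction to macrophage-like cells was just over the limit.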

Other observations

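Cells outside the named classes also held members. In the 9198 cells with 200 or fewer genes or at least 20% mitochondrial UMIs, Adamts10 had 81.9 CPM [77.5 to 86.5]. Fibroblast-like cells, its highest named class, had 65.4 CPM pooled, from 13.4 CPM in library 2 to 93 CPM in library 3. The 9198 cells were not split by library, so the pooled values are not matched. Mmp12 had 21.9 CPM [19.6 to 24.3] in the same 9198 cells, an interval that holds the 20.4 CPM of macrophage-like cells. An unnamed cluster of 1071 cells, all of library 2 and led by Gm26870, Snhg9 and Cxcl5, had 1289 CPM of Timp1, 155 CPM of Mmp3 and 296 CPM of Timp4.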
